A study of Mus musculus with 34 samples.

Results

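The genes described are the 10 whose products mark a neuron as using glutamate, GABA, glycine or acetylcholine: Slc17a6, Slc17a7, Slc17a8, Slc32a1, Gad1, Gad2, Slc6a5, Chat, Slc18a3 and Slc5a7. They were chosen for this role and not by a cut on a measured value, but with earlier results of these data known. Their probes were found by the RefSeq accession that the scanner output gives for each spot. The match gave 12 probes for 9 of the 10 genes, out of 55681 probes that are not controls and 20145 genes that were matched in this way. No probe was matched to Slc6a5, the plasma membrane glycine transporter of glycinergic neurons, so it is not analysed here.

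The data are microarray signals from transcriptome tomography, in which a whole frozen brain is cut serially and the slices are pooled into thick fractions. Each fraction pooled 100 slices of 5 µm, so that it was 500 µm wide, and its total RNA was hybridised to 1 array of 1 colour. The brains came from 3 male C57BL/6J mice aged 3 days, with mouse 1 cut in the coronal plane into 15 fractions, mouse 2 in the horizontal plane into 8 fractions, and mouse 3 in the sagittal plane into 11 fractions. There was no treatment and no other genotype, and the first and the last sagittal fraction each pooled 2 neighbouring cuts of the 13. A series is therefore 1 brain along 1 axis, with no replicate of any fraction. The spread behind each limma p-value is the scatter of the fractions around a fitted line or curve, and the number of arrays limits its precision. A permutation p-value comes from shuffling the order of the fractions instead. Both kinds treat neighbouring fractions of 1 brain as independent of one another, and neither covers the spread between animals. In such pooled tissue, fewer cells of a type and less RNA per cell cannot be told apart.

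Neurons load a transmitter into synaptic vesicles through a dedicated transporter, and the transporter they express largely defines what they release. Glutamate is loaded by the transporters encoded by Slc17a6, Slc17a7 and Slc17a8. In the mature brain Slc17a7 is the main form of cortex, hippocampus and cerebellar granule cells, and Slc17a6 that of thalamus, hypothalamus and brainstem. GABA is made by the decarboxylases Gad1 and Gad2 and is loaded, like glycine, by the product of Slc32a1. Acetylcholine is made by Chat from choline that the Slc5a7 transporter takes up, and is loaded by the product of Slc18a3.

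Values are log2 normalized signals, that is, the log2 of a probe's processed signal less the 75th percentile of the same array. A level of one probe is never set against that of another, since probes differ in brightness, and only patterns along a series are compared. Across the 34 arrays, 29598 to 37091 of 59305 spots were well above background and none was saturated. The slope along a series was fitted with limma over the 34186 probes that passed a filter on detection, which asked for 1 or more fractions well above background in every series, and a probe was called at a Benjamini-Hochberg adjusted p under 0.05 over all of them. The slope is in log2 units per fraction for the coronal and horizontal series. For the sagittal series it is in log2 units per cut away from the middle cut, number 7, which is fraction 6. A second fit asked for a change of any shape along the series, with a spline of 3 degrees of freedom.

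Lists of regional marker genes gave the orientation, without assigning any fraction to a region. Along the coronal series the summed signal of 6 cerebellar genes was highest in fraction 1 and that of 4 olfactory bulb genes in fraction 15. In the horizontal series, the sum of 6 telencephalic genes was highest in fraction 3 and that of 6 hypothalamic genes in fraction 8. The telencephalic sum of the sagittal series was highest in fraction 1 and lowest in fraction 6. Horizontal fraction 1 stood apart. The sum of 8 hindbrain and spinal cord genes, Hox genes among them, was 2.34 there against -2.62 and -2.73 in fractions 2 and 3, and it was 3.49 and 3.77 in fractions 5 and 6. Where leaving out this fraction changed the call of a horizontal slope, both values are given.

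Of the 12 probes, 1 rose and 6 fell along the coronal series, where 18.9% of all tested probes rose and 9.44% fell. Any shape was called for 9 of the 12, against 60.4% of all probes. Along the horizontal series 3 rose and 0 fell, with 0.959% of all probes rising and 0.804% falling. Any shape was called there for 2 of these 3 and for no other, against 1.72% of all probes. At an unadjusted limma p 9 of the 12 rose and 0 fell, while 2592 of all 34186 tested probes rose and 3237 fell. From the middle to the sides of the sagittal series 1 rose and 10 fell, with 19.5% and 10.6% of all probes, and any shape was called for 10 of the 12, against 17.6%. The members' median slope was -0.15 in the coronal, 0.24 in the horizontal and -0.37 in the sagittal series, while the median over all tested probes was 0.01, -0.01 and 0.01. All 12 passed the filter on detection.

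The balance of rising and falling calls over all probes depended on the scaling, so a direction is relative to it. Of the called coronal slopes 66.6% rose, but 53.0% after quantile normalization and 78.8% after normexp background correction. For the sagittal series it was 64.9%, and 82.4% when arrays were scaled to their medians and 82.3% after normexp. Scaling to the median instead of the 75th percentile moved single arrays by -0.17 to 0.24 relative to one another. Of the called slopes of the 12 probes, 1 changed sign under any of these scalings, that of the dimmer Slc17a8 probe in the sagittal series.

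The promoters of the pairs of genes with the closest profiles are shown first, and no result below uses these sequences. Slc17a6 and the brighter of the 2 Slc17a8 probes followed each other in all 3 series, and so did Slc18a3 and Slc5a7. The windows hold the 250 bases before the transcript start that RefSeq's promoter table lists for each gene, in build GRCm38.p6, and are written 5′ to 3′ on the gene's strand. They are chr7:51621580-51621829 on the plus strand for Slc17a6, chr10:89621250-89621499 on the minus strand for Slc17a8, chr14:32464851-32465100 on the minus strand for Slc18a3 and chr17:54299035-54299284 on the minus strand for Slc5a7. Capitals mark every match, on either strand, to 5 motifs. GGGCGG is the GC box that Sp1 binds. TATAAA is a TATA box. Both CAGATG and the related CAGCTG are E-boxes of neural bHLH factors. The longest, TTCAGCACC, is a stretch of the element that REST binds.
Slc17a6: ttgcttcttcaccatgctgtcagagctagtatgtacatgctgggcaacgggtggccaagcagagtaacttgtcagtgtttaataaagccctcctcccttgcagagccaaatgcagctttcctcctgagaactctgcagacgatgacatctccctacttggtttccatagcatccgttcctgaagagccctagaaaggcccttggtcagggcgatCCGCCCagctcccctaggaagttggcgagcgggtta
Slc17a8: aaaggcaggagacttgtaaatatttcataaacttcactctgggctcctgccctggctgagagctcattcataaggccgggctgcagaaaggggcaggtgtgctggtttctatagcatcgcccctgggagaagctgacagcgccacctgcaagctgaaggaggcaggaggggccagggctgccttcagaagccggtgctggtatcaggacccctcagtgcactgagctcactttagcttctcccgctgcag
Slc18a3: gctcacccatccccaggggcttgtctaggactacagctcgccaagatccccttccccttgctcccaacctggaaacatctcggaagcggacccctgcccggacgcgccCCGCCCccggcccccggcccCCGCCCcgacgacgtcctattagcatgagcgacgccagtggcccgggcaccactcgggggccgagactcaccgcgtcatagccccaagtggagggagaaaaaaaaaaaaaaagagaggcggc
Slc5a7: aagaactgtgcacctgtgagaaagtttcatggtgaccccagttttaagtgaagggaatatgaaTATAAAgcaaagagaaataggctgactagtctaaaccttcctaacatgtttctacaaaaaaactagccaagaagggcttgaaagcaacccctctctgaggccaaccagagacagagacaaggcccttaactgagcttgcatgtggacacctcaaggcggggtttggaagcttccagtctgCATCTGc
The matches did not overlap one another. Within each pair the windows differed in these letters. Slc17a6 held 1 GGGCGG and Slc17a8 no match at all, while Slc18a3 held 2 GGGCGG, and Slc5a7 held 1 CAGATG and 1 TATAAA. GC content was 53.2% and 57.2% in the first pair, and 66.0% and 45.6% in the second. Over the windows of all 10 genes, GGGCGG was found in 4, TATAAA in 2, CAGATG in 2, CAGCTG in 1 and TTCAGCACC in 0. Of 32851 windows of the same length in that table, 32.7% held GGGCGG, 12.4% TATAAA, 14.4% CAGATG, 13.0% CAGCTG and 0.301% TTCAGCACC. A match is a description of these letters and not a bound site.

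The fitted slopes of Slc17a7 and Slc17a6 had opposite signs along the coronal and the sagittal series. Fraction by fraction the coronal courses were not opposite throughout. Slc17a6 stayed on a plateau in fractions 1 to 9 while Slc17a7 rose. From fraction 12 to 14 both rose, Slc17a6 from 0.54 to 1.79 and Slc17a7 from 0.03 to 1.84. Slc17a7, on chromosome 7 from 45163921 to 45176139 in build GRCm38.p6, had an SD of 1.63 over the 34 fractions, larger than that of 99.4% of the tested probes. In the coronal series its log2 normalized signal was -5.33 in fraction 1, where the probe was not well above background. It then rose from -4.15 in fraction 2 through -1.98 in fraction 5 and -0.57 in fraction 8 to 2.17 in fraction 15. Against the lowest signal that was well above background in fraction 1, fraction 15 was at least 109.7-fold brighter. The values went up at every step but the one from fraction 10 to 11, which were -0.20 and -0.26. The fitted slope was 0.47 ± 0.03 (SE, n = 15 fractions; limma adjusted p = 8e-07). With the slide as a block the slope was 0.60 (limma adjusted p = 0.000525). After normexp background correction it was smaller but still called, at 0.31 ± 0.02 (SE, limma adjusted p = 1.5e-07).

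Across the sagittal series Slc17a7 was lowest at the middle and highest at both edges. It was -1.02 in fraction 6, 1.87 in fraction 1 and 1.47 in fraction 11, with a median of -0.62 over the 11 fractions. The 6 fractions from 4 to 9 all lay between -1.02 and -0.62. The slope away from the middle was 0.51 ± 0.08 (SE, n = 11, limma adjusted p = 0.00112). It fell to 0.36 with the slide as a block (limma adjusted p = 0.0889) and to 0.32 without both end fractions (limma adjusted p = 0.055). Along the horizontal series the gene went from -0.90 in fraction 1, with a median of -0.29, to 0.86 in fraction 8, a slope of 0.23 ± 0.04 (SE, limma adjusted p = 0.0387). Leaving out any 1 fraction but fraction 5 ended that call, with a largest limma adjusted p of 0.134. Without fraction 1 the slope was still 0.23 (limma adjusted p = 0.101). The call ended without both end fractions too (0.19, limma adjusted p = 0.296).

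Slc17a6, on chromosome 7 from 51621830 to 51671126, formed a plateau and then a step. In the coronal series its 9 values in fractions 1 to 9 lay between 2.88 and 3.71, the highest in fraction 4. They dropped to 1.71, 0.84 and 0.54 in fractions 10, 11 and 12, the lowest of the series, and recovered to 1.79 in fraction 14. The plateau was delimited on these same values, so its gap to the fractions from 10 on is only a description. The step from 2.90 in fraction 9 to 0.84 in fraction 11 lay within 1 slide. The slope was -0.19 ± 0.04 (SE, n = 15, limma adjusted p = 0.00234), and the change of any shape had a limma adjusted p of 9.25e-05. With the slide as a block the slope was -0.04 (limma adjusted p = 0.826) and any shape was not called (limma adjusted p = 0.126). The slides lay along the series, with fractions 1 to 8 on one and 6 of the other 7 fractions on another. The summed signal of 5 thalamic marker genes, all detected, fell over the step of Slc17a6 too. It was 4.28 and 4.04 in fractions 8 and 9 and 2.40, 1.32 and 1.17 in fractions 10 to 12. In fractions 1 and 15 the sum was 2.18 and 2.64, while Slc17a6 was 2.88 and 1.19. Of the 5 genes, Rora was highest in fraction 1 and Calb2 in fraction 15. The sum of 6 hypothalamic genes fell from 5.43 in fraction 8 to 2.27 in fraction 11, but was lowest, at 1.16, in fraction 6. The part of thalamic or hypothalamic cells in the step was not tested.

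Sagittally, Slc17a6 was 3.43 in fraction 5, its highest, and 1.19 and 1.59 in fractions 1 and 11, with a median of 2.81. The 5 fractions from 4 to 8 lay between 3.19 and 3.43, above all others. The slope was -0.43 ± 0.05 (SE, n = 11, limma adjusted p = 0.000338), and it stayed past the threshold with the slide as a block, at -0.43 (limma adjusted p = 0.0302). In the horizontal series the values ran from 2.26 in fraction 1 to 3.09 in fraction 3, with a median of 2.66 and no called slope (0.02 ± 0.05, SE, n = 8; limma adjusted p = 0.873).

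**Figure D1:**
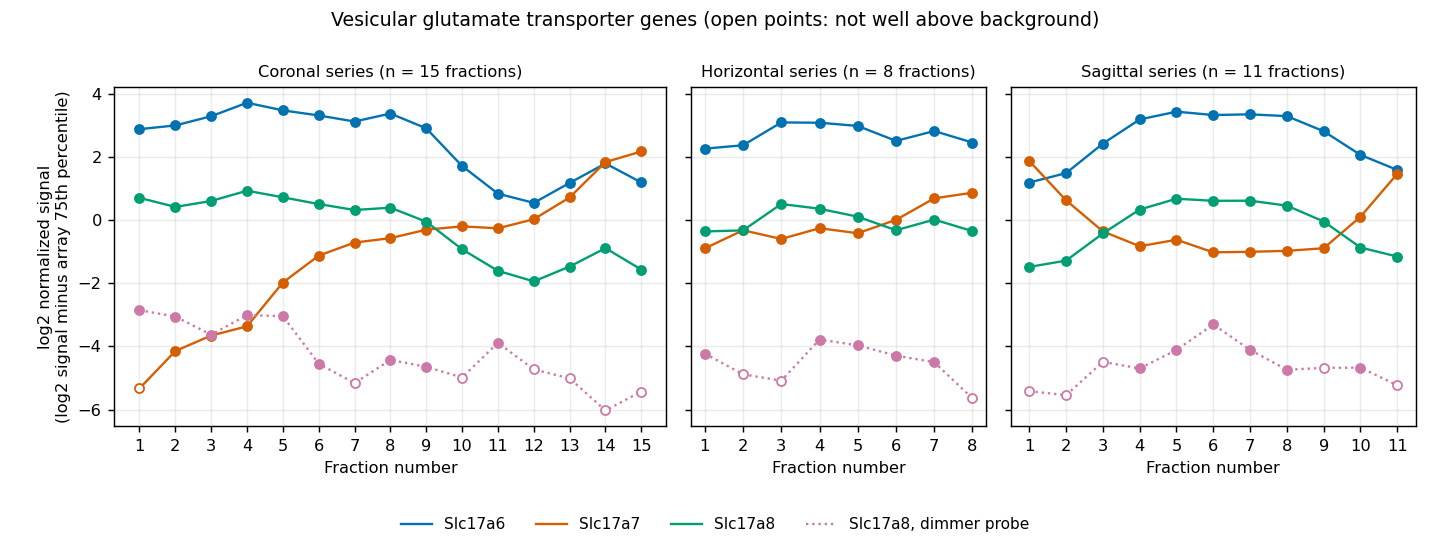
Log2 normalized signal (y axis, log2 signal minus the array's 75th percentile) of the 3 vesicular glutamate transporter genes in every fraction (x axis, fraction number) of the coronal, horizontal and sagittal series, 1 array a point, open points not well above background and the dotted line the dimmer Slc17a8 probe. Slc17a7 rises from -5.33 to 2.17 along the coronal series while Slc17a6 leaves its plateau after fraction 9, and the heights of different lines are not comparable because they come from different probes.

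The difference of the log2 values of Slc17a6 and Slc17a7 on an array does not depend on how that array was scaled to its percentile. In the coronal series Slc17a6 minus Slc17a7 went from 7.14 in fraction 2 to -0.98 in fraction 15, and only this change is read, not the level. Its slope was -0.66 ± 0.02 per fraction (SE, n = 15; two-sided permutation test, p = 1e-05, the smallest that the 100000 resamples can give, adjusted p = 6e-05 over 12 differences). Within single slides the slope was -0.66 over the 8 fractions of one and -0.61 over the 6 fractions of the other. Sagittally, the difference was -0.68 and 0.12 at the edges, in fractions 1 and 11, and 4.35 at its highest, in fraction 7. Its slope was -0.94 ± 0.13 per cut from the middle (SE, n = 11; two-sided permutation test, p = 1e-05, again the smallest possible, adjusted p = 6e-05), and -0.74 over the 8 fractions of one slide. In the horizontal series the difference was 3.69 at its highest in fraction 3 and 1.59 in fraction 8, with a slope of -0.21 ± 0.08 (SE, n = 8; exact two-sided permutation test, p = 0.0541, adjusted p = 0.13).

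The Pearson correlation coefficient r of the pair was -0.63 over the 15 coronal, -0.06 over the 8 horizontal and -0.93 over the 11 sagittal fractions. These are descriptions, since the fractions of a series share a mouse, their scaling and mostly a slide. Within the coronal slide that held fractions 1 to 8, where Slc17a6 was on its plateau, r was 0.38, and over the 6 fractions of the other slide it was -0.26. From fraction 9 to 15 both genes contributed to the change of the difference, with Slc17a7 going from -0.30 to 2.17 and Slc17a6 from 2.90 to 1.19.

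**Figure D2:**
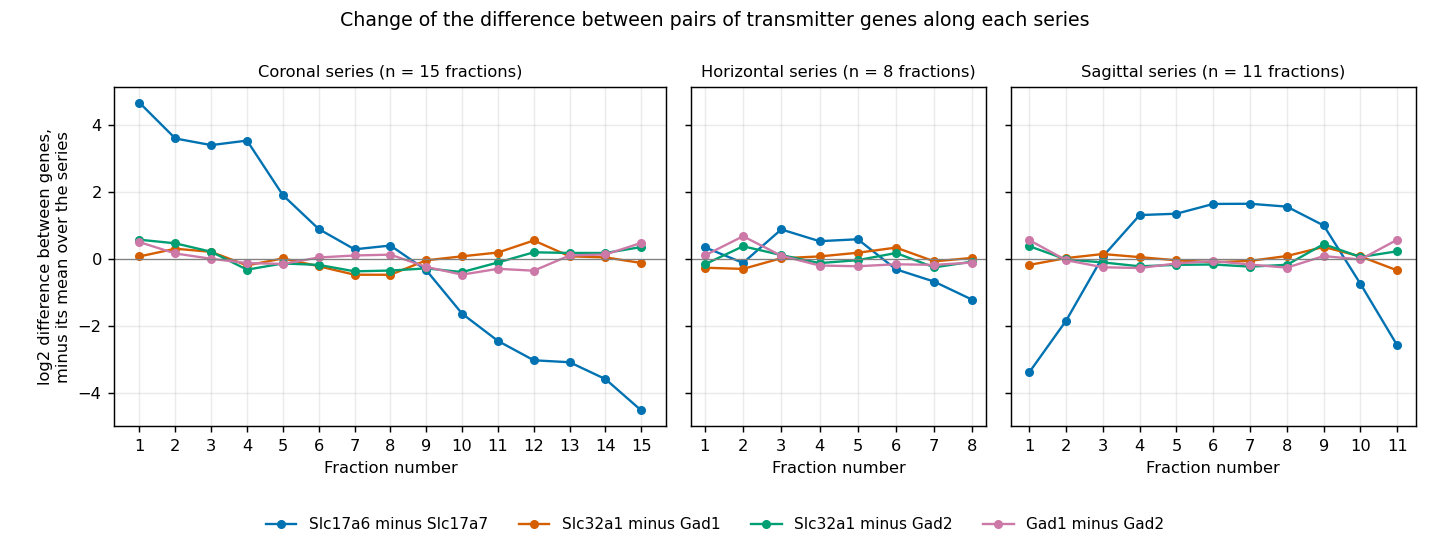
Difference of log2 values between the genes of each of 4 pairs (y axis, log2 units, centred on its mean over the series) in every fraction (x axis) of each series. The line of Slc17a6 minus Slc17a7 goes from its highest in fraction 1, where Slc17a7 was not well above background, to its lowest in fraction 15 of the coronal series and has a dome in the sagittal series, while the 3 pairs of GABA genes stay near 0.

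Slc17a8, the glutamate transporter gene found in scattered serotonin, cholinergic and interneuron populations, had 2 probes that disagreed. It lies on chromosome 10 from 89574020 to 89621249. The brighter probe, A_51_P210350, followed Slc17a6 closely, with r of 0.98, 0.95 and 1.00 in the coronal, horizontal and sagittal series. Whether this probe also reads Slc17a6 RNA was not tested. Its coronal values were 0.93 at the highest in fraction 4, 0.32 at the median and -1.94 at the lowest in fraction 12, with a slope of -0.20 ± 0.03 (SE, n = 15, limma adjusted p = 0.000246). With the slide as a block the slope was -0.08 (limma adjusted p = 0.426) and any shape was not called (limma adjusted p = 0.117). Its sagittal values went from 0.68 in fraction 5 to -1.48 and -1.16 in fractions 1 and 11, a slope of -0.43 ± 0.05 (SE, n = 11, limma adjusted p = 0.000229). The horizontal values, from -0.36 to 0.51, gave no called slope.

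The dimmer Slc17a8 probe, A_52_P163021, was well above background in 20 of 34 fractions. It was highest at -2.85 in coronal fraction 1 and at -3.31 in sagittal fraction 6, and its r with the brighter probe was 0.62, 0.24 and 0.81 in the 3 series. Its r with Slc17a6 was 0.52, 0.30 and 0.80. Its coronal slope was -0.19 ± 0.03 (SE, n = 15, limma adjusted p = 0.00064) and was not called after normexp background correction (-0.02, limma adjusted p = 0.346) or with the slide as a block (-0.25, limma adjusted p = 0.0914). The sagittal slope was -0.31 ± 0.05 (SE, n = 11, limma adjusted p = 0.00166), and normexp turned it to 0.0021 (limma adjusted p = 0.954). Whether the 2 probes read different transcripts of the gene was not tested.

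The GABA genes varied less and had no straight course in the coronal series. Slc32a1, on chromosome 2 from 158607260 to 158615747, was represented by its brighter probe, A_52_P138926. Its log2 normalized signal was well above background in all 34 fractions, and its SD over them was 0.43. In the coronal series it lay between 5.54 in fraction 13 and 6.57 in fraction 5, with a median of 6.21. The slope was -0.02 ± 0.02 (SE, n = 15, limma adjusted p = 0.575), and no change of any shape was called (limma adjusted p = 0.838). Its values were 6.42 to 6.57 in fractions 2 to 5, 5.90 and 5.91 in fractions 7 and 8, and 6.54 and 6.51 in fractions 11 and 12. The sum of 6 striatal marker genes was highest, at 6.00, in fraction 11, but only 2.67 to 3.04 in fractions 2 to 5.

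Slc32a1 had its clearest course along the horizontal series. It was 5.17 to 5.51 in fractions 1 to 4 and 6.11 to 6.64 in fractions 5 to 8. This split was chosen on the same values, and how many other probes separate there was not counted. The slope was 0.24 ± 0.03 (SE, n = 8, limma adjusted p = 0.0211), and leaving out fraction 2, 7 or 8 ended the call, with a largest limma adjusted p of 0.0818. In the sagittal series this brighter probe was 5.53 and 5.61 in fractions 1 and 11 and 6.60 at its highest in fraction 9, with a median of 6.43. The slope was -0.16 ± 0.04 (SE, n = 11, limma adjusted p = 0.0116). It was -0.06 with the slide as a block (limma adjusted p = 0.558) and -0.07 without both end fractions (limma adjusted p = 0.416). Leaving out fraction 1 alone gave -0.13 (limma adjusted p = 0.061), and fraction 11 alone -0.14 (limma adjusted p = 0.0527). The dimmer Slc32a1 probe, A_55_P1985286, had slopes of 0.23 ± 0.05 in the horizontal and -0.09 ± 0.04 in the sagittal series, neither of them called (limma adjusted p = 0.0887 and 0.0949). Its r with the brighter probe was 0.83 in the coronal and 0.88 in the horizontal series, but 0.43 in the sagittal series. There the dimmer probe was -1.401 in fraction 1, near its median of -1.38, and -1.825 in fraction 9. It was lowest at -1.999 in fraction 11.

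Gad1 and Gad2 followed the same outline. Gad1, on chromosome 2 from 70561303 to 70602014, was 2.43 at its lowest in coronal fraction 13 and 3.64 at its highest in fraction 4, with a median of 3.17. Its change of any shape was called (limma adjusted p = 0.0236), while its slope was not (-0.02 ± 0.02, limma adjusted p = 0.479). Gad2, on the same chromosome from 22621015 to 22693877, was 1.66 in coronal fraction 1, 3.22 in fraction 4, 1.77 in fraction 13 and 2.68 at the median, with a limma adjusted p of 0.0264 for any shape. Leaving out fraction 1 or 5 ended both calls of any shape, with a largest limma adjusted p of 0.059 for Gad1 and 0.0765 for Gad2. The call of Gad1 also ended with the slide as a block (limma adjusted p = 0.113), and that of Gad2 without both end fractions (limma adjusted p = 0.131). All 3 genes were low in fraction 13, the fraction with the highest telencephalic sum.

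Along the horizontal series Gad2 rose from 1.53 in fraction 2 to 3.35 in fraction 7, with a median of 2.42 and a slope of 0.27 ± 0.04 (SE, n = 8, limma adjusted p = 0.0211). Fractions 1 to 4 lay between 1.53 and 2.16, and fractions 5 to 8 between 2.67 and 3.35, a split again chosen on the values. Leaving out fraction 2, 6, 7 or 8 ended the call, with a largest limma adjusted p of 0.081. Gad1 had values of 2.70 at the lowest in fraction 3, 3.19 at the median and 4.03 at the highest in fraction 7, and its slope of 0.19 ± 0.04 just missed the threshold (limma adjusted p = 0.0544). It passed in the median-scaled, quantile-normalized and normexp-corrected data, with limma adjusted p of 0.0396, 0.0369 and 0.0109.

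Gad2 in the sagittal series was lowest at 1.55 in fraction 1 and 1.78 in fraction 11 and highest at 3.19 in fraction 7, a slope of -0.26 ± 0.05 (SE, n = 11, limma adjusted p = 0.00234). Gad1 was lowest at 2.52 in fraction 1 and highest at 3.42 in fraction 7, a slope of -0.14 ± 0.02 (SE, n = 11, limma adjusted p = 0.00181). With the slide as a block they were -0.15 and -0.10, and neither was called (limma adjusted p = 0.187 and 0.132).

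**Figure D3:**
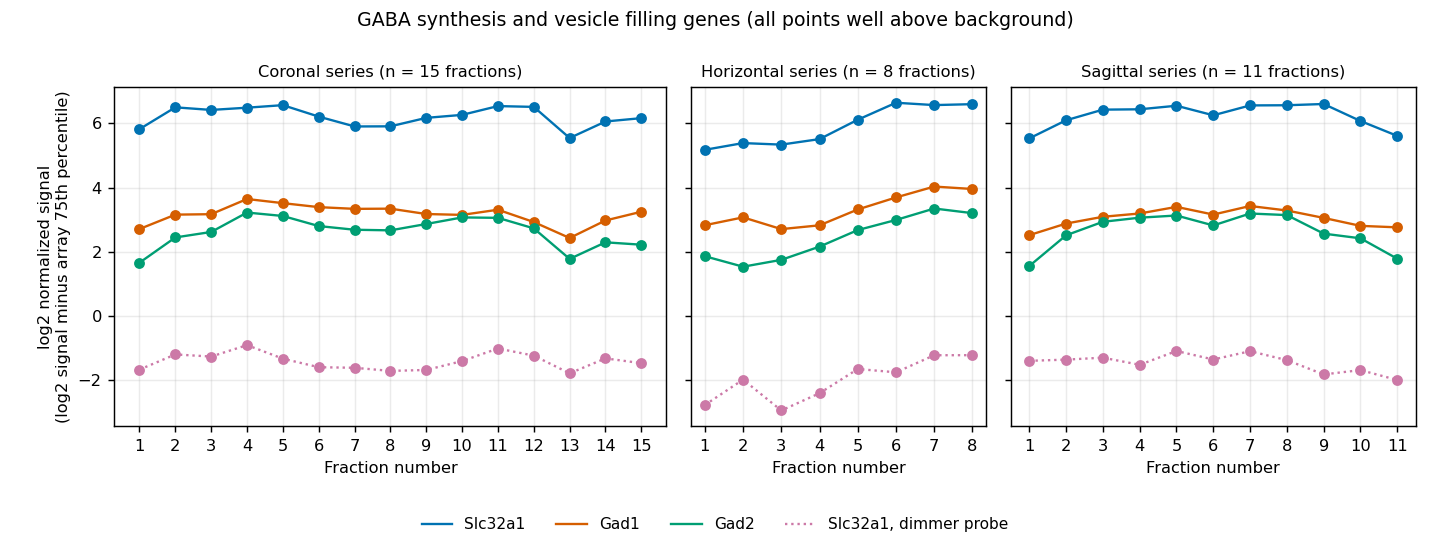
Log2 normalized signal (y axis, log2 signal minus the array's 75th percentile) of Slc32a1, Gad1 and Gad2 in every fraction (x axis) of each series, 1 array a point, all well above background, with the dimmer Slc32a1 probe dotted and heights of different lines not comparable. In the horizontal series Slc32a1 and Gad2 sit lower in all of fractions 1 to 4 than in fractions 5 to 8, and in the coronal series fraction 13 is a low point of all 3 genes.

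As no Slc6a5 probe was matched, Slc32a1 was set against Gad1 and Gad2 instead, a choice made after the members' values were seen. Slc32a1 minus Gad1 had slopes of 0.003 ± 0.017 in the coronal, 0.05 ± 0.03 in the horizontal and -0.03 ± 0.03 in the sagittal series, none of them called (smallest adjusted p = 0.228, permutation tests, exact for the horizontal series). Slc32a1 minus Gad2 rose away from the middle of the sagittal series by 0.10 ± 0.03 per cut (SE, n = 11; permutation test, p = 0.0106, adjusted p = 0.0319), and Gad1 minus Gad2 by 0.12 ± 0.04 (SE, n = 11; permutation test, p = 0.00588, adjusted p = 0.0235). Both calls ended when the mixed slide, number 5, or both end fractions were left out. Leaving out 1 fraction ended the call of Slc32a1 minus Gad2 for fractions 1, 4, 5, 7, 8, 10 and 11, and that of Gad1 minus Gad2 for fractions 1, 7 and 11, with a largest permutation adjusted p of 0.126 for each. Quantile normalization, or a middle set 0.5 cuts higher, also ended that of Slc32a1 minus Gad2. The r of the 3 genes with one another was 0.61 to 0.82 in the coronal, 0.92 to 0.96 in the horizontal and 0.89 to 0.94 in the sagittal series, as a description over 15, 8 and 11 fractions. Without coronal fraction 13, where all 3 were low, that of Slc32a1 with Gad1 was 0.36.

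By the probes that represent them, the 3 acetylcholine genes were all highest in fraction 3 of the coronal series. Each was higher again beyond fraction 8 than in fraction 7, but not in the same fractions. Slc18a3 lies on chromosome 14 from 32462437 to 32464850, inside the span of Chat from 32408203 to 32465909, so that the genes for making and for loading acetylcholine form 1 locus. Slc18a3 was -1.07 in fraction 1, jumped to 2.02 in fraction 2 and had its maximum of 2.39 in fraction 3. It fell to -1.06 in fraction 7, rose again to 0.90 in fraction 11 and ended at -1.87, -2.55 and -1.98 in fractions 13 to 15. The highest value was 30.6-fold above the lowest. The slope was -0.23 ± 0.07 (SE, n = 15, limma adjusted p = 0.0197), and any shape was called too (limma adjusted p = 0.0334). Leaving out any 1 of fractions 2 to 5 or 13 to 15 ended the call of any shape, with a largest limma adjusted p of 0.105. The slope lost its call when fraction 14 or 15 was left out (limma adjusted p = 0.0542 and 0.0512) and with the slide as a block (-0.34, limma adjusted p = 0.31).

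Slc5a7, on chromosome 17 from 54273590 to 54299038, was represented by A_55_P2025690 and went the same way. It was 0.40 at its highest in fraction 3, -2.70 in fraction 7, -0.94 in fraction 9 and -4.43 and -5.40 in fractions 13 and 14, where it was not well above background. Fraction 3 was at least 25.8-fold brighter than the mean of both. The slope was -0.32 ± 0.06 (SE, n = 15, limma adjusted p = 0.00135), and the other Slc5a7 probe, A_55_P2142818, gave -0.25 ± 0.04 (limma adjusted p = 0.00107). With the slide as a block neither was called (limma adjusted p = 0.137 and 0.154). The r between the 2 probes was 0.93, 0.97 and 0.97 in the 3 series. In the coronal series A_55_P2142818 was highest in fraction 4, at -1.425, and was -1.76 in fraction 3.

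Chat was well above background in 27 of 34 fractions. Its coronal values were -4.28 in fraction 1, -1.77 at the highest in fraction 3, -3.44 at the median and -3.49 to -3.07 in fractions 9 to 12, and it was not well above background in fractions 7, 13 and 14. Fraction 3 was at least 6.92-fold brighter than the mean of these. Neither the slope (-0.10 ± 0.06, limma adjusted p = 0.257) nor a change of any shape (limma adjusted p = 0.534) was called. The slope was -0.22 without both end fractions (limma adjusted p = 0.0267). Fraction 15 set the genes apart, since Chat was there at -2.74, above its median, while Slc18a3 and Slc5a7 were among their lowest values.

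**Figure D4:**
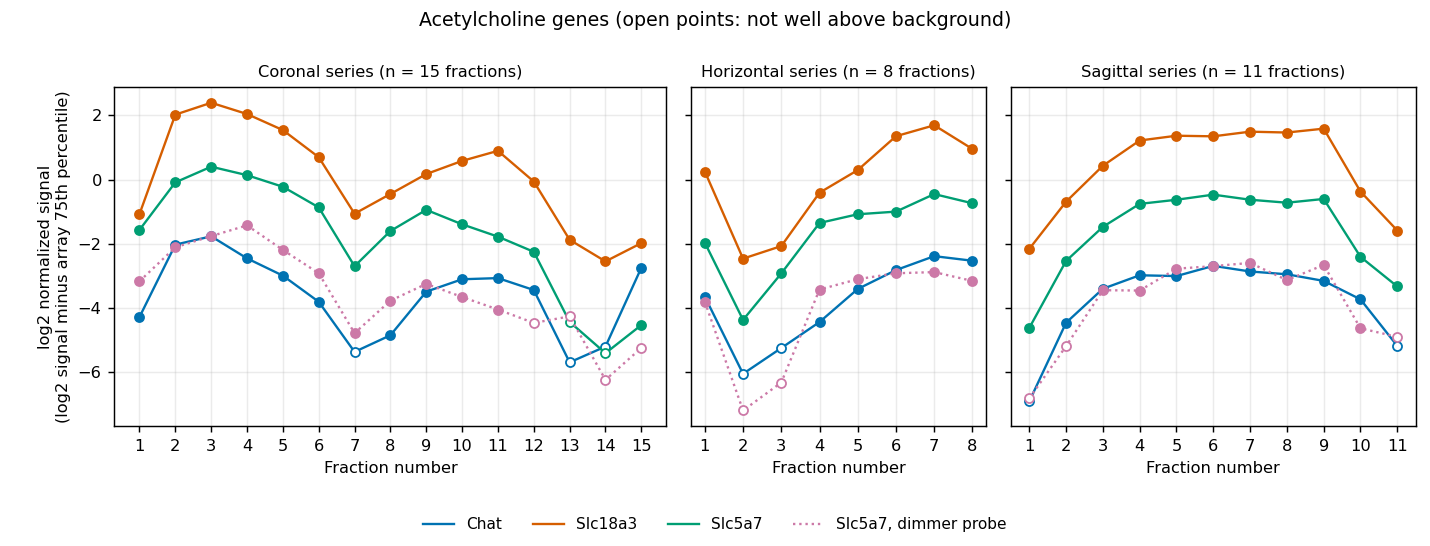
Log2 normalized signal (y axis, log2 signal minus the array's 75th percentile) of Chat, Slc18a3 and Slc5a7 in every fraction (x axis) of each series, 1 array a point, open points not well above background, with the dimmer Slc5a7 probe dotted and heights of different lines not comparable. Slc18a3 has maxima of 2.39 in coronal fraction 3 and 0.90 in fraction 11, and horizontal fraction 1 lies above fractions 2 and 3 for every probe.

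Lists of marker genes were set beside these maxima. The sum of 4 motor neuron genes detected of 5 listed (Isl1, Phox2a, Prph and Calca, with Mnx1 not matched) was highest at 3.58 in coronal fraction 3 and lowest at -0.17 in fraction 14. Its genes differed, since Calca was highest in fraction 3, Phox2a and Prph in fraction 4 and Isl1 in fraction 11. The sum of 3 choroid plexus genes, all detected, was highest at 8.39 in fraction 3 and was 7.45 to 7.64 in fractions 9 to 11, against -0.38 in fraction 1 and 2.72 in fraction 14. The sum of sensory ganglion genes was also highest in fraction 3, at 2.26, with 5 of 6 detected. Mrgprd was not well above background in any coronal fraction. Of these 5 only Pou4f1 was highest in fraction 3, while Avil was highest in fraction 4, Scn10a in 8, Prdm12 in 12 and Trpv1 in 15. Avil, Trpv1 and Scn10a were well above background in only 1, 2 and 5 of the 15 fractions. The part of motor neurons, choroid plexus or sensory ganglion cells in the maxima was not tested. Skeletal muscle genes had their highest sum in fraction 6, at 2.67, away from the maxima.

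In the sagittal series all 3 acetylcholine genes were high over the middle and fell at both edges. Slc18a3 lay between 1.22 and 1.58 in fractions 4 to 9 and at -2.16 and -1.58 in fractions 1 and 11, with a slope of -0.67 ± 0.10 (SE, n = 11, limma adjusted p = 0.00109). Slc5a7 lay between -0.76 and -0.47 in fractions 4 to 9 and at -4.62 and -3.33 at the edges, with a slope of -0.69 ± 0.10 (SE, n = 11, limma adjusted p = 0.000936). Chat was -2.69 at its highest in fraction 6, -3.15 at the median and not well above background in fractions 1 and 11, with a slope of -0.61 ± 0.11 (SE, n = 11, limma adjusted p = 0.00247). With the slide as a block the slope was -0.44 for Slc18a3, -0.43 for Slc5a7 and -0.40 for Chat, and that of Chat alone was called (limma adjusted p = 0.101, 0.0548 and 0.0432).

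In the horizontal series the acetylcholine genes were higher in fraction 1 than in fractions 2 and 3, and highest in fraction 7. Slc18a3 was 0.25 in fraction 1, -2.46 and -2.07 in fractions 2 and 3, and 1.69 at the highest in fraction 7. Slc5a7 was -1.96 in fraction 1, -4.37 and -2.92 in fractions 2 and 3, and -0.45 in fraction 7. Chat was -3.65 in fraction 1, not well above background in fractions 2 and 3, and -2.38 in fraction 7. No slope of the 3 genes was called over the 8 fractions. Without fraction 1 the slope was 0.70 for Slc18a3 (limma adjusted p = 0.0375) and 0.64 for Chat (limma adjusted p = 0.0134), alternatives chosen after seeing the data. Motor neuron genes were at 1.86 in fraction 1 and at 0.09 and -0.08 in fractions 2 and 3, and the hindbrain and spinal cord sum moved in the same way. Their part in the values of fraction 1 was not tested.

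Across the 9 genes, each read by its brighter probe where it had several, the pattern of likeness differed by plane. In the sagittal series every pair without Slc17a7 had an r between 0.83 and 1.00, and Slc17a7 had an r between -0.99 and -0.89 with each of the others. The dimmer probes were looser there. With the genes other than Slc17a7, the dimmer Slc32a1 probe had a sagittal r from 0.29 for Chat to 0.59 for Gad2. The dimmer Slc17a8 probe had one from 0.56 for Slc32a1 to 0.80 for Slc17a6. With Slc17a7 they had -0.37 and -0.74. In the horizontal series Slc17a7 went with the GABA genes instead, with r of 0.90 for Gad1, 0.82 for Gad2 and 0.83 for Slc32a1, while Slc17a6 had an r between -0.22 and 0.19 with each gene but Slc17a8. In the coronal series Slc32a1 had an r of 0.05 with Slc17a6 and 0.83 with Chat. These are descriptions over 11, 8 and 15 fractions that share a mouse and its scaling.

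**Figure D5:**
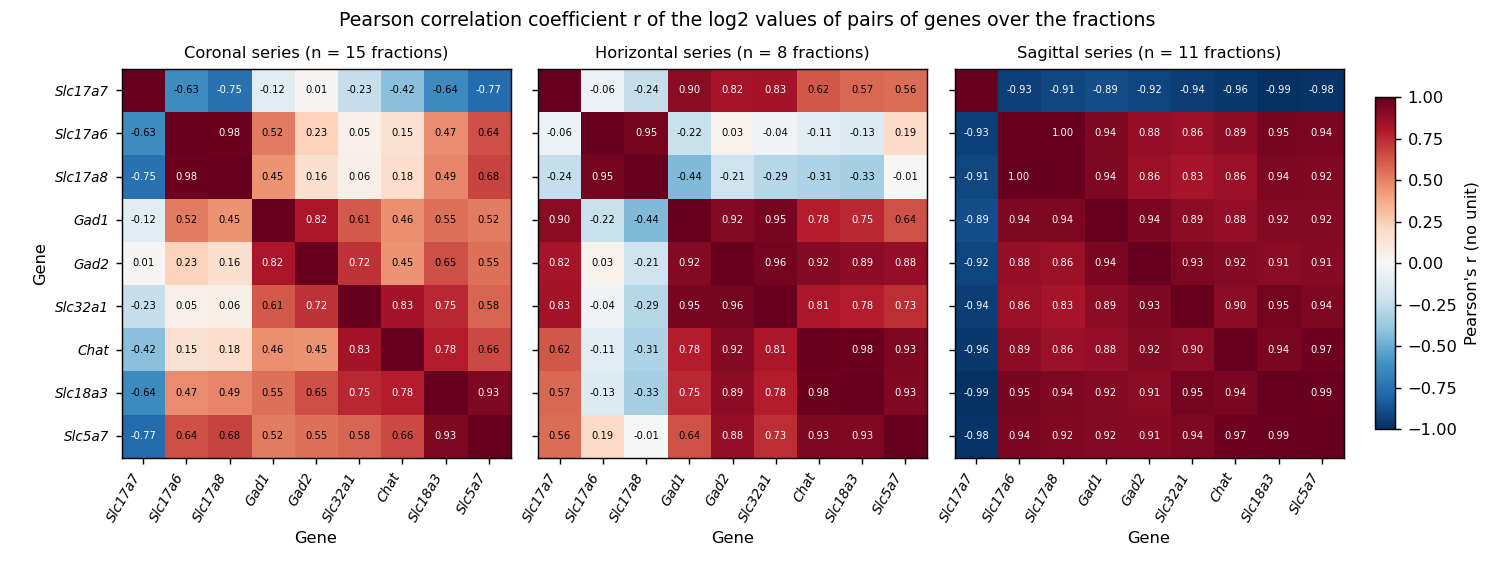
Pearson correlation coefficient r (colour scale and printed values, no unit) between the log2 values of each pair of the 9 genes over the fractions of each series, with genes on both axes. A gene with several probes is shown by its brighter one. Slc17a7 is negative with all others in the sagittal series and positive with the GABA and acetylcholine genes in the horizontal series.

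The most similarly expressed transcripts were searched as the genes whose lowest r in the 3 series was highest, among probes with 1 gene symbol. Slc17a6 and the brighter Slc17a8 probe were each other's nearest out of all, with a lowest r of 0.95, while that of the dimmer Slc17a8 probe with Slc17a6 was 0.30. Slc18a3 and Slc5a7 were likewise each other's nearest, with a lowest r of 0.93. Near Slc17a7 were Icam5, a dendritic adhesion molecule of telencephalic neurons, with a lowest r of 0.95, Kcnj4, an inward rectifier potassium channel, with 0.93, and Gda, guanine deaminase, with 0.91. Next to Slc17a6 after Slc17a8 came Bnip3, with 0.92, and Gmcl1, with 0.91.

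The GABA genes had looser neighbours. For the brighter Slc32a1 probe they were Spata21, with a lowest r of 0.85, Chat, with 0.81, and Zar1, with 0.81. The lowest r of the dimmer Slc32a1 probe with Chat was 0.29. Gad1 had 1700010I14Rik, Galnt16 and Hap1, each with 0.85, and Gad2 had Irs4, with 0.82, Calcr, with 0.82, and Gad1, with 0.82. Chat had Ddo, with 0.82, Zar1, with 0.82, and Slc32a1, with 0.81. After each other, Slc18a3 had Itih3 and Arhgap36, each with 0.89, and Slc5a7 had Dgkk and Ntsr2, each with 0.92.

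Other genes of the same transmitters were followed in a list of 37 for synthesis, uptake, breakdown, vesicle filling and trophic receptors. Along the coronal series 0 of the 37 rose by limma, 11 fell and 26 were not called. Of all tested probes 18.9% rose and 9.44% fell. For any shape 31 of the 37 were called, against 60.4% of all probes. At an unadjusted limma p 0 of the 37 rose, while 8953 of all 34186 probes did. The glutamate list had 4 of 12 falling, the GABA list 3 of 6, the glycine list 1 of 7, the acetylcholine list 3 of 8 and the list of shared vesicle filling 0 of 4. The median slope of the 37 was -0.02, against 0.01 over all probes.

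The steepest fall was that of Ngfr, the low affinity neurotrophin receptor of basal forebrain cholinergic neurons, from 3.10 in fraction 3 to 0.11 in fraction 13 (slope -0.22 ± 0.03, SE, n = 15; limma adjusted p = 4.9e-05). Slc1a6, a glutamate transporter of cerebellar Purkinje cells, fell from 5.29 in fraction 2 to 2.83 in fraction 15 (slope -0.17 ± 0.01, SE, limma adjusted p = 3.51e-07). Slc6a9, the glycine transporter that is mainly glial, fell from 5.52 in fraction 2 to 3.59 in fraction 13 (slope -0.14 ± 0.02, SE, limma adjusted p = 3.05e-05).

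Away from the sagittal middle 4 of the 37 rose and 13 fell, against 19.5% and 10.6% of all tested probes, with 4 of 12 falling in the glutamate list, 3 of 6 in the GABA list, 1 of 7 in the glycine list, 4 of 8 in the acetylcholine list and 1 of 4 in the list of vesicle filling. The median slopes of the 37 were 0.04 in the horizontal and -0.03 in the sagittal series, against -0.01 and 0.01 over all probes.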

How the data were processed

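The data were scanner output of 34 arrays of 1 colour (Cy3) from 3 mice, 1 array a fraction. The authors deposited, per the file headers, Agilent Feature Extraction (version 10.10.1.1) files with background-subtracted processed signal intensity per spot. They also deposited a table of log2 values for 43199 probes, which was used only as an alternative. Of its values, 99.92% lay within 0.02 of the log2 signal less 1 constant per array, with column medians of -2.44 to -2.24, and 0 of its columns went unmapped. Samples were grouped by plane from the labels, as coronal (n = 15), horizontal (n = 8) and sagittal (n = 11).

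From the intensities, spots of one probe were averaged, and the 75th percentile of each array was subtracted from log2 of the processed signal, leaving out control spots. Slopes and splines were fitted per plane with limma 3.58.1 in R 4.3.3, after testing the script on simulated data. Adjusted p-values are Benjamini-Hochberg over 34186 probes. Differences between genes were tested by two-sided permutation of the fractions, with 100000 resamples, or all 40320 orders for the horizontal series. The exact test of the horizontal series and the permutation tests were adjusted together over 12 differences. Other steps were run in Python 3.11.15 (scipy 1.17.1, pandas 2.3.3, numpy 2.4.6).

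The members, lists and tests were chosen with earlier results of these data known. The 9 differences between Slc32a1, Gad1 and Gad2 among the 12, and the leaving out of single fractions, were added after values were seen. A gene with several probes is represented by the probe well above background in the most fractions, ties going to the higher median. The most similar genes are the 3 with the highest value of the lowest r of the 3 series. From the transmitter list, the 3 steepest called slopes in each direction of the coronal series are named. The horizontal counts of this list and the sum of a list of basal forebrain markers are not reported here. Alternatives were median and quantile scaling, normexp background correction, the authors' table, other detection filters, a mean-variance trend, the slide as a block, and leaving out the slide shared by all planes (slide 5), the end fractions or single fractions. A fold against a fraction without detection uses the lowest signal there that was well above background. Positions and promoter sequences are from RefSeq (GRCm38.p6).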

Additional observations from a re-analysis of the deposited data

How the results depend on the processing

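Each plane is 1 mouse with no replicate of a fraction, so no value here covers the spread between animals. The slides follow the order of the fractions, so that a fit with the slide as a block compares few fractions within a slide. The 8 horizontal fractions limit every horizontal call, and dim probes (Chat, the second Slc17a8 and Slc5a7 probes) have only bounds in some fractions. No paired analysis was possible because a fraction number is a position in a different mouse and plane, and no test compares planes. The difference Slc32a1 minus Slc6a5 is not analysed here, since no probe was matched to Slc6a5. Where a value changed and its construction does not show why, the cause was not tested.

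Slc17a6 minus Slc17a7 kept its direction under all alternatives run on the differences. It stayed called in the coronal and sagittal series and not called in the horizontal series. The slide as a block was not among these alternatives. Median scaling could not change the difference and the authors' table hardly could, since a constant per array cancels in it. Leaving out single fractions gave slopes of -0.67 to -0.65 in the coronal, -0.26 to -0.13 in the horizontal and -1.07 to -0.84 in the sagittal series.

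With limma, the coronal count of probes with a called slope was 9677, but 16605 with no detection filter and 251 with the slide as a block, and the count for any shape went from 20642 to 12532 with the block. With it the members called went from 7 to 1 for the slope and from 9 to 5 for any shape. The horizontal slope count of 603 became 330 without the mixed slide, 175 with no filter, 962 with the block and 198 without the end fractions. The horizontal count for any shape of 589 became 2573 with normexp, 0 without the mixed slide, 4 with no filter, 1068 with detection in at least 0.5 of the fractions, 2185 with limma-trend, 2 with the block and 0 without the end fractions, where 5002 probes without that slide and 8954 without the end fractions passed at an unadjusted p. The members called horizontally went from 3 to 5 for the slope with the block. For any shape they went from 2 to 7 with normexp, 5 with detection in 0.5 of the fractions and 6 with limma-trend. They went to 0 without the mixed slide, with no filter, with the block and without the end fractions. There 8, 9, 10 and 9 members passed at an unadjusted limma p, against 5002, 8421, 6424 and 8954 of all probes. All probes were 55681 with no filter and 34186 otherwise.

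The sagittal slope count of 10298 became 15523 with normexp, 2339 with the block and 3434 without the end fractions. That for any shape, 6006, became 3649 without the mixed slide, 2857 with no filter, 474 with the block and 745 without the end fractions. Members called sagittally went from 11 to 4 with the block and to 6 without the end fractions for the slope, and from 10 to 3 under each for any shape. The sagittal slope of the dim Slc17a8 probe A_52_P163021 turned to 0.0021 with normexp. The sagittal slope of Slc32a1 minus Gad2 lost its call at 0.0612 with quantile normalization, 0.1084 without the mixed slide, 0.0831 without the end fractions and 0.0897 with the middle set higher. That of Gad1 minus Gad2 lost it at 0.1034 without the mixed slide and 0.0264 without the end fractions. With the second Slc32a1 probe, r in the sagittal series was 0.5624 with Gad1 and 0.5855 with Gad2.

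Leaving out single fractions gave 20 to 528 probes with a called slope and 0 to 458 with any shape horizontally, with 0 to 4 and 0 to 6 members, and 6812 to 10497 and 2559 to 5488 probes sagittally. The sagittal slope ranged from 0.0963 to 0.1604 for Gad1 minus Gad2 and from 0.0857 to 0.113 for Slc32a1 minus Gad2, and r of Slc32a1 with Gad2 from 0.8832 to 0.9952.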
